A study of Mus musculus with 9 samples.

Results

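The 37 genes described here encode proteins that bring fatty acids into the cell, activate them, carry them into mitochondria and oxidise them. They were chosen by gene symbol for these roles, and every array probe annotated to one of the symbols was considered. The array annotation used here listed 73 probes for 35 of the 37 genes, and 59 of these probes, for 33 genes, were kept because 3 or more of the 9 arrays detected them, with a detection p under 0.01. These 33 genes are among the 10800 genes tested, each read by its brightest kept probe. No probe was listed under the symbols Acsl1 and Ucp2, the 2 probes of Cpt1a were undetected on all 9 arrays, and the 2 probes of Ucp3 were each detected on only 2 of 3 adult arrays. A gene that passed the filter only through groups in which it is high was bound to differ from a group without detection. Decr1, detected on all CMp and CMa arrays and on no mES array, is such a gene in the comparisons with mES. Counts over the 33 genes therefore describe the genes tested and not all 37.

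Total RNA was measured on Illumina bead arrays in 3 groups of 3 samples, which the labels order by stage. The mES group holds undifferentiated mouse embryonic stem cells with the source name mES_TBV2. The CMp group holds purified cardiomyocytes from the hearts of mice 1 day old, and the CMa group purified cardiomyocytes from the left ventricle of mice 2 months old. The labels give no genotype, strain or sex, say that no treatment was given, describe all cells as cultured primary cells, and do not say whether animals were pooled, and the p-values below therefore rest on a spread between samples that may be partly technical. CMa and CMp differ both in age and in the heart region sampled, and the effects of these cannot be told apart.

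Arrays had median raw signals of 88.7 to 112, with 30.4% to 39.6% of 45281 probes detected. Correlations between arrays over the genes tested were 0.965 to 0.995 within groups, 0.85 to 0.884 between CMa and CMp, 0.633 to 0.648 between CMp and mES, and 0.555 to 0.58 between CMa and mES. All 11 cardiomyocyte markers tested were higher and all 8 pluripotency markers lower in both cardiomyocyte groups than in mES. Markers of other heart cells were also present: all 7 endothelial markers tested were higher in CMp and in CMa than in mES, and 6 of the 7 were lower in CMa than in CMp, with mean log2 levels of 9.54 to 9.98 on CMa arrays and 10.65 to 11.30 on CMp arrays. Of 6 smooth muscle and pericyte markers, 1 was higher, 2 were lower and 3 were not called in CMa against CMp (mean log2 levels 7.92 to 8.04 in CMa and 8.15 to 8.62 in CMp). All 7 fibroblast markers were lower in CMa than in CMp (mean log2 levels 6.92 to 7.15 in CMa and 9.83 to 10.25 in CMp), as were 5 of 6 macrophage and leukocyte markers (5.24 to 5.98 in CMa and 6.45 to 6.96 in CMp) and all 4 erythroid markers (9.90 to 10.86 in CMa and 13.25 to 13.69 in CMp). Fibroblast and macrophage markers were undetected on every mES array, Col1a2, Tagln, Cd52 and Tyrobp were undetected on every CMa array, and of 8 adipocyte markers Cidea alone was kept (9.71 to 10.13 in CMa and 9.14 to 9.92 in CMp). The part of these other cells in the results below was not tested. In such samples fewer cells of a type and less RNA per cell cannot be told apart.

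Long-chain fatty acids reach the heart muscle cell bound to albumin or in lipoproteins, from which lipoprotein lipase frees them. After uptake they are joined to coenzyme A, passed across the mitochondrial membranes as carnitine esters, and shortened by repeated rounds of dehydrogenation, hydration, dehydrogenation and thiolysis. Fatty acids are the main fuel of the adult heart, whereas the fetal heart relies more on glucose and lactate, and the change of fuel takes place around and after birth.

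Transcripts of nearly every step of this route were more abundant in cardiomyocytes of both ages than in embryonic stem cells, and most were higher again in adult than in neonatal cells. The 3 tested long-chain acyl-CoA synthetases of the set, Acsl3, Acsl4 and Acsl5, were instead lower in CMa than in CMp. So was the signal of Hadha, a subunit of the trifunctional protein. The single Hadha probe is annotated to a cDNA clone, and which transcript it reads could not be checked. Acsl6, a synthetase outside the set, was higher in CMa than in CMp. Of the 33 genes tested, 29 were higher and 1 was lower in CMp than in mES (limma, Benjamini-Hochberg adjusted p under 0.05 over all genes), where 35.4% of all genes were called higher and 38.8% lower. In CMa against mES, 29 were higher and 2 lower, with 36.8% of all genes called higher and 40.2% lower. In CMa against CMp, 22 were higher, 4 were lower and 7 were not called, with 26.4% of all genes called higher and 25.9% lower.

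The median log2 difference over the 33 genes was 2.37 for CMp against mES, 3.25 for CMa against mES and 0.95 for CMa against CMp, beside -0.09, -0.07 and 0.01 over all genes tested. In 21 of the 33 genes (63.6%) the 3 groups did not overlap and rose in the order mES, CMp, CMa, an order found in 12% of all genes tested. The F-test over the 3 groups called 32 of the 33, all but Hadh, and 87.9% of all genes. Differences of at least 2-fold were found among the called genes in 27 cases higher and 0 lower for CMp against mES, 29 higher and 2 lower for CMa against mES, and 13 higher and 4 lower for CMa against CMp. For these 2-fold counts the share over all genes was not computed, so they cannot be set against it. The comparisons with mES share the mES arrays, so their counts are not independent of each other. When arrays were scaled to the same median and not quantile normalized, this moved the median of all genes to -0.59, -0.78 and -0.20 in the 3 comparisons, and those of the 33 genes to 1.60, 2.55 and 0.90. It also lowered the share of higher genes among all calls to 34.7%, 31.1% and 35.1%, against 47.8%, 47.7% and 50.5%. Calls that ended were those of Acsl5 (0.34), Acadsb (0.28), Echs1 (0.18) and Etfa (0.39) in CMp against mES and of Slc22a5 (0.42) in CMa against CMp. Calls gained were Cd36, higher in CMp than in mES (0.50, adjusted p = 0.028), and Acot2, lower in CMa than in CMp (-0.90, 0.0482). Acsl5 was then called lower in CMa than in mES (-0.83, adjusted p = 0.00782).

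**Figure D1:**
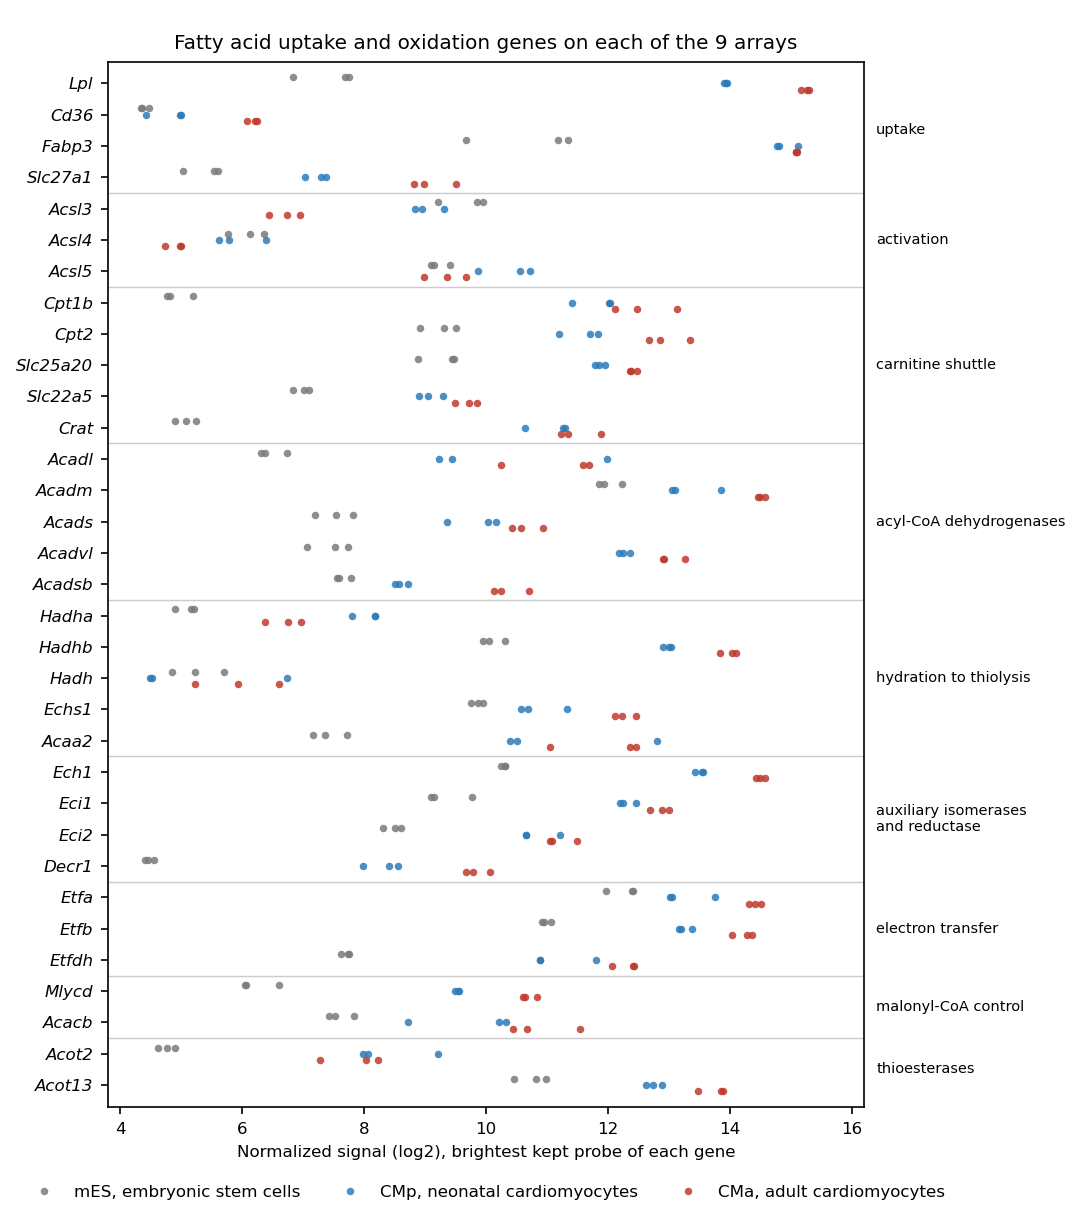
Normalized log2 signal (horizontal axis) of each of the 33 genes tested on each array, 1 point per array, with genes grouped by role and coloured by group. In 21 genes the 3 mES points lie left of the 3 CMp points, which lie left of the 3 CMa points, whereas for Acsl3 the CMa points lie left of all others.

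Among genes of uptake, the largest difference was that of lipoprotein lipase, Lpl, the enzyme that frees fatty acids from circulating lipoproteins. Its log2 level was 7.76, 6.84 and 7.69 on the mES arrays, 13.94, 13.96 and 13.90 on the CMp arrays, and 15.29, 15.17 and 15.27 on the CMa arrays. The groups did not overlap, and the CMa values lay near the top of the scale, where differences can be compressed. Lpl rose by 6.50 ± 0.23 (log2, SE) in CMp relative to mES (adjusted p = 1.23e-09), a 90.7-fold difference, and by 1.31 ± 0.23 in CMa relative to CMp (adjusted p = 0.000599). Another kept probe of Lpl, annotated to a cDNA clone, was undetected in mES and CMp and gave 0.44 for CMp against mES and 1.41 for CMa against CMp.

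Slc27a1, which encodes the fatty acid transport protein FATP1, measured 5.61, 5.04 and 5.53 in mES, where 2 of 3 arrays detected it, 7.37, 7.03 and 7.29 in CMp, and 8.81, 8.98 and 9.51 in CMa. The steps were of nearly the same size, 1.84 ± 0.22 for CMp against mES and 1.87 ± 0.22 for CMa against CMp, and no groups overlapped. Cd36, the fatty acid translocase of the plasma membrane, was undetected in mES, detected on 2 of 3 CMp arrays at 5.002 and 4.988 with 4.422 on the undetected array, and detected on all CMa arrays at 6.25, 6.09 and 6.22. It was higher in CMa than in CMp by 1.38 ± 0.18 (adjusted p = 9.35e-05) and at least 2.30-fold higher in CMa than in mES. The difference between CMp and mES was not called (0.41, 95% interval 0.01 to 0.81, adjusted p = 0.0603), although it was called in 4 of 21 alternative runs. These were the runs without CMp replicate 3 (0.60, adjusted p = 0.00891), with cyclic loess (0.84, 0.00132), with arrays scaled to the same median (0.50, 0.028) and with array weights (0.37, 0.0398).

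Fabp3, the fatty acid binding protein of heart muscle, was already abundant in stem cells and close to the ceiling in both cardiomyocyte groups. Its log2 level was 11.34, 9.67 and 11.18 in mES, 15.12, 14.81 and 14.78 in CMp, and 15.11, 15.08 and 15.08 in CMa. All mES values were below those of the cardiomyocytes, and CMa and CMp overlapped. The difference was 4.17 ± 0.36 for CMp against mES (adjusted p = 1.26e-06), and that between CMa and CMp was not called (0.19, 95% interval -0.60 to 0.98).

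Long-chain synthetases activate fatty acids to acyl-CoA, and the 3 of the set that were tested were lower in adult than in neonatal cells. In that comparison 25.9% of all genes were called lower. Acsl6, outside the set, was instead at least 7.53-fold higher in CMa than in CMp. Acsl3, a synthetase of the endoplasmic reticulum and lipid droplets, measured 9.85, 9.21 and 9.95 in mES, 9.32, 8.95 and 8.83 in CMp, and 6.74, 6.45 and 6.95 in CMa. All CMa values were lower than those of the other arrays, and CMp overlapped with mES. Acsl3 fell by 2.96 ± 0.23 in CMa relative to mES (adjusted p = 4.77e-07) and by 2.32 ± 0.23 relative to CMp (adjusted p = 1.35e-05). Its decrease in CMp relative to mES was small (-0.64 ± 0.23, adjusted p = 0.0279) and was not called without mES replicate 1 (-0.55, adjusted p = 0.0933), mES replicate 3 (-0.50, 0.11), CMp replicate 2 (-0.60, 0.0751) or CMp replicate 3 (-0.54, 0.0958).

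Acsl4, which prefers arachidonic acid, measured 6.14, 6.36 and 5.76 in mES and 6.39, 5.61 and 5.79 in CMp, and its tested probe was undetected on all CMa arrays, while 2 dimmer kept probes were each detected on 1 CMa array. By the tested probe it was at least 1.56-fold lower in CMa than in mES (adjusted p = 0.000637) and at least 1.40-fold lower than in CMp (adjusted p = 0.00318), and mES and CMp overlapped. Acsl5, a synthetase of mitochondria and endoplasmic reticulum, was highest in neonatal cells. It measured 9.15, 9.40 and 9.11 in mES, 9.87, 10.71 and 10.56 in CMp, and 9.36, 9.67 and 8.98 in CMa. All CMp values were above the others, with a rise of 1.16 ± 0.25 in CMp relative to mES (adjusted p = 0.0013) and a fall by 1.04 ± 0.25 in CMa relative to CMp (adjusted p = 0.00449). CMa and mES did not differ by a called amount (0.12, 95% interval -0.42 to 0.67). With arrays scaled to the same median Acsl5 was instead called lower in CMa than in mES (-0.83, adjusted p = 0.00782), and with array weights it was called higher (0.43, 0.0135). For these synthetases the dimmer probes gave smaller differences between CMa and CMp: -0.05 for the other kept probe of Acsl3, -0.29 and -0.01 for those of Acsl4, and -0.61 for that of Acsl5. Acsl1, the main long-chain synthetase of the adult heart, had no listed probe.

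All 5 genes of the carnitine shuttle that were tested rose in CMp relative to mES (median 2.60) and in CMa relative to mES (median 3.71), and 4 of 5 rose in CMa relative to CMp (median 0.61). Over all genes tested, 35.4%, 36.8% and 26.4% were called higher in these comparisons. Cpt1b, the muscle form of carnitine palmitoyltransferase 1 that makes acyl-carnitine at the outer membrane, measured 5.19, 4.82 and 4.77 in mES, where 1 of 3 arrays detected it. It measured 11.41, 12.04 and 12.01 in CMp and 12.12, 12.47 and 13.13 in CMa. The rise of 6.89 ± 0.27 in CMp relative to mES (adjusted p = 2.86e-09) was the largest of all 33 genes in that comparison, and a dimmer Cpt1b probe gave 5.27. Between CMa and CMp the groups did not overlap but lay close together, with a difference of 0.76 ± 0.27 (adjusted p = 0.0357). That call was lost without CMp replicate 1 (0.55, adjusted p = 0.0985), CMa replicate 2 (0.81, 0.0635), CMa replicate 3 (0.48, 0.133) or mES replicate 2 (0.76, 0.0502), with no detection filter (0.76, 0.0667), and with only the 2 groups fitted (0.76, 0.0706). The 2 probes of Cpt1a, the liver form of the enzyme, were undetected on all arrays, with levels of 4.26 to 4.68, so the difference between the 2 forms could not be followed.

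Cpt2, which returns the acyl group to coenzyme A inside the mitochondrion, measured 9.31, 8.92 and 9.51 in mES, 11.19, 11.71 and 11.84 in CMp, and 12.67, 12.85 and 13.35 in CMa. No groups overlapped, and its 3 kept probes gave closely similar differences, 2.31 to 2.36 for CMp against mES and 1.38 to 1.71 for CMa against CMp (brightest probe 1.38 ± 0.24, adjusted p = 0.000711). Slc25a20, the carnitine-acylcarnitine carrier of the inner membrane, rose by 2.60 ± 0.18 in CMp relative to mES and by 0.54 ± 0.18 in CMa relative to CMp (adjusted p = 0.0264). The smaller of these calls was lost without CMp replicate 2 (0.50, adjusted p = 0.0856), CMa replicate 2 (0.56, 0.0567) or CMa replicate 3 (0.51, 0.0642). A dimmer Slc25a20 probe gave 0.91 (adjusted p = 0.221, not called) for CMp against mES and 1.42 (0.0912, not called) for CMa against CMp. Slc22a5, the carnitine transporter of the plasma membrane known as OCTN2, rose by 2.10 ± 0.17 and by 0.61 ± 0.17 in the same comparisons, but its dimmest kept probe gave -0.76 for CMp against mES. Crat, carnitine acetyltransferase, which buffers acetyl-CoA, measured 4.89, 5.24 and 5.07 in mES, 10.63, 11.26 and 11.30 in CMp, and 11.23, 11.35 and 11.89 in CMa. It rose by 5.99 ± 0.23 in CMp relative to mES (1.16 and 1.61 by its dimmer probes), and CMa overlapped with CMp (0.43, 95% interval -0.08 to 0.94). For CMa against CMp the dimmer Crat probes gave 0.67 and 1.43. The difference was called higher there in 2 of 21 alternative runs, with cyclic loess (0.69, adjusted p = 0.0231) and with the mean of kept probes (0.84, 0.0354).

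**Figure D2:**
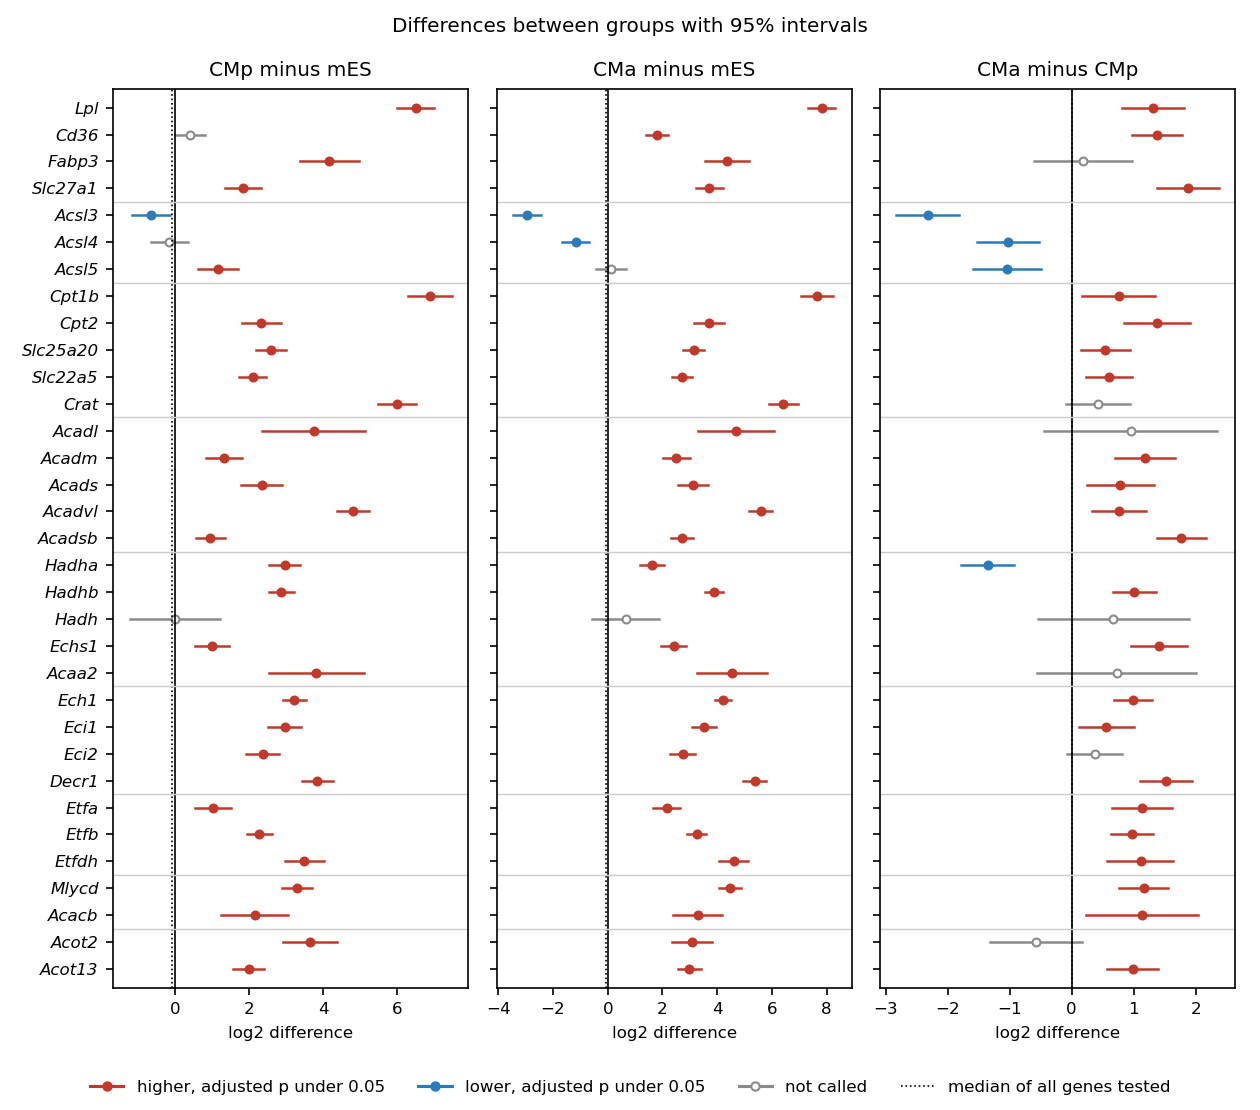
Log2 difference (horizontal axis) of each of the 33 genes in CMp minus mES, CMa minus mES and CMa minus CMp, with its 95% interval, coloured by call. Nearly all genes lie right of the median of all genes in the comparisons with mES, and the 4 genes called lower in CMa than in CMp are Acsl3, Acsl4, Acsl5 and Hadha.

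Acyl-CoA dehydrogenases specific for ranges of chain length catalyse the opening reaction of each round. Acadsb, an acyl-CoA dehydrogenase for short branched acyl groups, is counted with them here. All 5 rose in CMp relative to mES (median 2.34) and in CMa relative to mES (median 3.13), and 4 of 5 rose in CMa relative to CMp. The shares of all genes called higher there were 35.4%, 36.8% and 26.4%. Acadvl, the very-long-chain enzyme, measured 7.53, 7.07 and 7.74 in mES, 12.36, 12.24 and 12.19 in CMp, and 12.91, 12.90 and 13.27 in CMa. Without overlap between groups, it rose by 4.82 ± 0.20 in CMp relative to mES (adjusted p = 3.98e-09) and by 0.77 ± 0.20 in CMa relative to CMp (adjusted p = 0.00687). Acadm, the medium-chain enzyme, was abundant in all groups, at 11.94, 11.85 and 12.23 in mES, 13.85, 13.05 and 13.11 in CMp, and 14.46, 14.58 and 14.50 in CMa. It rose by 1.33 ± 0.22 in CMp relative to mES and by 1.18 ± 0.22 in CMa relative to CMp (adjusted p = 0.000973).

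Acadsb, an enzyme for short branched acyl groups, measured 7.79, 7.56 and 7.60 in mES, 8.51, 8.57 and 8.73 in CMp, and 10.14, 10.25 and 10.70 in CMa. The groups did not overlap, and it rose by 0.96 ± 0.18 in CMp relative to mES and by 1.76 ± 0.18 in CMa relative to CMp (adjusted p = 1.46e-05). Acads, the short-chain enzyme, rose by 2.34 ± 0.25 and by 0.79 ± 0.25 (adjusted p = 0.0203) in these comparisons, the smaller call being lost without CMp replicate 1 (0.54, adjusted p = 0.0544) or CMa replicate 3 (0.64, 0.0736). Acadl, the long-chain enzyme, measured 6.73, 6.31 and 6.38 in mES, 11.99, 9.23 and 9.45 in CMp, and 11.68, 11.59 and 10.25 in CMa. It was higher in CMp than in mES by 3.75 ± 0.63, and the difference between CMa and CMp was not called (0.95, 95% interval -0.44 to 2.34), with CMp replicate 1 above and CMa replicate 3 below the others of their groups. Acadl was called higher there in 4 of 21 alternative runs. These were the runs with array weights (2.06, adjusted p = 2.05e-05), the mean of kept probes (0.89, 0.022), the dimmest kept probe (0.62, 0.0477) and without CMp replicate 1 (1.84, 0.0014).

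Promoter windows of 300 bases around the start of transcription, most of them upstream, from RefSeq on GRCm38.p6 were found for 31 of the 37 genes, with 34 windows in all. Lpl, Cpt1b, Crat, Acaa2, Decr1 and Acot13 were not among them. Both strands were searched for the hexamer AGGTCA, the core element of sites for nuclear receptors such as PPAR alpha and ERR alpha, which are known to act on many of these genes. It lay in a window of 7 of 31 genes (22.6%), namely Cd36, Cpt1a, Acadm, Acadvl, Echs1, Acacb and Ucp3. Counted by window, it lay in 7 of the 34 windows of the set and in 16.3% of all 32851 windows. The longer forms AGGTCANAGGTCA, a direct repeat of the hexamer, and TCAAGGTCA, which ends in it, lay in the window of 0 of 31 genes, beside 0.0396% and 0.423% of all windows. The windows of Acadvl (chr11:70015379-70015678, minus strand) and Acadm (chr3:153944594-153944893, minus strand) are shown, as dehydrogenases in the rise described above, with the hexamer on either strand in capitals.
Acadvl: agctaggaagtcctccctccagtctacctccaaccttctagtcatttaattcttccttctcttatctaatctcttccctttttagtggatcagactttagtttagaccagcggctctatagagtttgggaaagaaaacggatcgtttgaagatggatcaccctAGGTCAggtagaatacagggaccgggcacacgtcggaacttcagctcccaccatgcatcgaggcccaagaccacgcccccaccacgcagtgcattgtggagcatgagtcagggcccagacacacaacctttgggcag
Acadm: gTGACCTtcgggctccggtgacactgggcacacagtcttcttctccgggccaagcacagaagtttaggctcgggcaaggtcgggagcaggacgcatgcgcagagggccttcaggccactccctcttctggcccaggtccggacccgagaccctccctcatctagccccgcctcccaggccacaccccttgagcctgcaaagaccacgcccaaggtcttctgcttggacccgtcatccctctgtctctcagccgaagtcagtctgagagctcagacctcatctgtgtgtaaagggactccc
The hexamer begins 87 bases before the start of transcription in Acadvl and 249 bases before it in Acadm. A match describes these letters in this window and is not evidence of binding.

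The mitochondrial trifunctional protein carries out hydration, dehydrogenation and thiolysis of long chains. The single probes kept for its 2 subunits differed in opposite directions between adult and neonatal cells. Hadhb, the beta subunit, measured 10.04, 10.32 and 9.95 in mES, 12.91 to 13.03 in CMp, and 14.03, 13.84 and 14.10 in CMa, and rose by 1.01 ± 0.16 in CMa relative to CMp (95% interval 0.66 to 1.36, adjusted p = 0.000305). Hadha, the alpha subunit, measured 5.20, 4.90 and 5.17 in mES, where 2 of 3 arrays detected it, 7.81, 8.18 and 8.17 in CMp, and 6.37, 6.76 and 6.97 in CMa. All its CMa values lay between those of the other groups, and it fell by 1.35 ± 0.20 in CMa relative to CMp (95% interval -1.78 to -0.93, adjusted p = 0.000179). Both subunits were higher in CMp than in mES, Hadhb by 2.87 ± 0.16 and Hadha by 2.96 ± 0.20. The single probe of Hadha is annotated to a cDNA clone and not to a RefSeq mRNA, and which transcript it reads could not be checked. In CMa against CMp the kept clone probes of Etfdh (-0.77) and Echs1 (-0.14) were also lower, where RefSeq probes of these genes were higher. That of Lpl was higher (1.41), as was its RefSeq probe. Whether the difference of Hadha goes with its kind of probe was not tested.

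These genes lie head to head on chromosome 5, and their promoter windows share 228 bases. The Hadhb window (chr5:30155003-30155302, plus strand) is shown because it holds most of the region between the start sites. Capitals mark the GC box GGGCGG on either strand, with 4 matches.
Hadhb: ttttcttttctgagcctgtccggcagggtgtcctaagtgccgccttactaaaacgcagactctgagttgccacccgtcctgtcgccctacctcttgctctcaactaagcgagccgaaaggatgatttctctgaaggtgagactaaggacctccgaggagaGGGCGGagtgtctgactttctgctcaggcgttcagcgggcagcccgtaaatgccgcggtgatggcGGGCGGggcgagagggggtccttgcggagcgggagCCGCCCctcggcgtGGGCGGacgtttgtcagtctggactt
The GC box was found in a window of 22 of 31 genes (71%) and the CCAAT box in 14 of 31 (45.2%). Counted by window, the GC box lay in 23 of 34, beside 35.7% of all windows, and the CCAAT box in 15 of 34, beside 37.4%.

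Of the other enzymes of hydration to thiolysis, Echs1, the short-chain enoyl-CoA hydratase, measured 9.76, 9.95 and 9.87 in mES, 11.32, 10.58 and 10.69 in CMp, and 12.47, 12.11 and 12.22 in CMa. The groups did not overlap, and it rose by 1.00 ± 0.21 in CMp relative to mES (adjusted p = 0.00111) and by 1.41 ± 0.21 in CMa relative to CMp (adjusted p = 0.000212). A dim Echs1 probe annotated to a cDNA clone gave -0.14 for CMa against CMp. Acaa2, the mitochondrial thiolase, measured 7.73, 7.16 and 7.36 in mES, 12.80, 10.39 and 10.51 in CMp, and 12.46, 12.37 and 11.04 in CMa. It was higher in CMp than in mES by 3.82 ± 0.58 (adjusted p = 0.00012), and CMa against CMp was not called (0.72, 95% interval -0.56 to 2.01). Acaa2 was called higher there in 2 of 21 alternative runs, with array weights (1.74, adjusted p = 5.66e-05) and without CMp replicate 1 (1.51, 0.00499). Hadh, the short-chain 3-hydroxyacyl-CoA dehydrogenase, was near background, detected on 2 mES, 1 CMp and 2 CMa arrays at levels of 4.49 to 6.73 over all arrays. No comparison of it was called, with log2 differences of -0.01 for CMp against mES (95% interval -1.23 to 1.21), 0.66 for CMa against mES (-0.56 to 1.88) and 0.67 for CMa against CMp (-0.55 to 1.89). With array weights Hadh was called lower in CMp than in mES (-0.81, adjusted p = 0.0206) and higher in CMa than in CMp (0.79, 0.024).

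Auxiliary isomerases and a reductase let unsaturated chains enter the cycle. All 4 genes of this kind rose in CMp relative to mES (median 3.09) and in CMa relative to mES (median 3.87), and 3 of 4 rose in CMa relative to CMp. Beside these counts, 35.4%, 36.8% and 26.4% of all genes were called higher. Decr1, the 2,4-dienoyl-CoA reductase, was undetected in mES, at 7.97, 8.41 and 8.56 in CMp, and at 9.79, 9.67 and 10.06 in CMa. It was at least 10.1-fold higher in CMp and at least 29.0-fold higher in CMa than in mES, and rose by 1.53 ± 0.19 in CMa relative to CMp (adjusted p = 5.75e-05). Ech1, a dienoyl-CoA isomerase, had the smallest standard error of the 33 genes: it measured 10.31, 10.31 and 10.24 in mES, 13.54, 13.42 and 13.56 in CMp, and 14.58, 14.49 and 14.42 in CMa. Its rise was 3.22 ± 0.14 in CMp relative to mES and 0.99 ± 0.14 in CMa relative to CMp (adjusted p = 0.000145). The enoyl-CoA isomerases Eci1 and Eci2 rose by 2.97 ± 0.20 and 2.37 ± 0.20 in CMp relative to mES. In CMa against CMp Eci1 gave 0.56 ± 0.20 (adjusted p = 0.0373), a call lost without CMp replicate 2 (0.50, adjusted p = 0.111), CMp replicate 3 (0.53, 0.0991), CMa replicate 1 (0.48, 0.104) or CMa replicate 2 (0.54, 0.0905). Eci2 was not called there (0.37, 95% interval -0.07 to 0.82). In 3 of 21 alternative runs it was: with cyclic loess (0.56, adjusted p = 0.0456), with array weights (0.44, 0.00539) and without CMp replicate 1 (0.55, 0.0229).

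Electron transfer flavoprotein takes electrons from the acyl-CoA dehydrogenases, and its dehydrogenase passes them to ubiquinone. All 3 genes rose in all 3 comparisons. Etfa, the alpha subunit, measured 12.41, 11.96 and 12.40 in mES, 13.75, 13.06 and 13.02 in CMp, and 14.41, 14.51 and 14.32 in CMa. Etfb, the beta subunit, measured 10.92, 10.95 and 11.06 in mES, 13.17, 13.20 and 13.37 in CMp, and 14.36, 14.28 and 14.03 in CMa. No groups overlapped, and in CMa against CMp the subunits rose by 1.14 ± 0.22 and 0.97 ± 0.15, with adjusted p = 0.00123 for Etfa and adjusted p = 0.000327 for Etfb. Etfdh, the dehydrogenase, rose by 3.49 ± 0.24 in CMp relative to mES and by 1.11 ± 0.24 in CMa relative to CMp (adjusted p = 0.00275), although a dimmer probe annotated to a cDNA clone gave -0.77 for CMa against CMp and a RefSeq probe 1.64.

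Malonyl-CoA blocks carnitine palmitoyltransferase 1 and so restrains fatty acid entry. Transcripts of both the enzyme that makes it at the mitochondrion, Acacb, and the one that removes it, Mlycd, were higher in cardiomyocytes. Mlycd, malonyl-CoA decarboxylase, measured 6.61, 6.04 and 6.06 in mES, 9.54, 9.50 and 9.55 in CMp, and 10.84, 10.61 and 10.65 in CMa, rising by 3.30 ± 0.18 in CMp relative to mES and by 1.17 ± 0.18 in CMa relative to CMp (adjusted p = 0.000285). Acacb, acetyl-CoA carboxylase 2, measured 7.42, 7.84 and 7.53 in mES, 8.71, 10.21 and 10.33 in CMp, and 10.44, 10.68 and 11.53 in CMa. The groups did not overlap, and Acacb rose by 2.15 ± 0.41 in CMp relative to mES (adjusted p = 0.000585). Its rise of 1.13 ± 0.41 in CMa relative to CMp (adjusted p = 0.0367) was lost without any of 6 arrays: CMp replicate 1 (0.62, adjusted p = 0.0883), CMa replicate 2 (1.23, 0.0582), CMa replicate 3 (0.81, 0.137), and mES replicates 1, 2 and 3 (1.14, 0.0505; 1.14, 0.0529; 1.14, 0.0525). It was also lost in the authors' matrix (0.996, adjusted p = 0.0612), with no detection filter (1.13, 0.0827) and with only the 2 groups fitted (1.13, 0.082).

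The mitochondrial thioesterases, which release fatty acids from coenzyme A, rose in cardiomyocytes. Acot13 measured 10.99, 10.46 and 10.82 in mES, 12.88, 12.63 and 12.74 in CMp, and 13.89, 13.48 and 13.85 in CMa, without overlap, and rose by 1.99 ± 0.19 in CMp relative to mES and by 0.99 ± 0.19 in CMa relative to CMp (adjusted p = 0.00113). Acot2 measured 4.90, 4.77 and 4.61 in mES, where 1 of 3 arrays detected it, 9.22, 8.06 and 7.98 in CMp, and 8.22, 8.03 and 7.27 in CMa. It rose by 3.65 ± 0.33 in CMp relative to mES, and CMa and CMp overlapped (-0.58, 95% interval -1.31 to 0.16). Ucp3, an uncoupling protein of muscle mitochondria, was not tested, and its 2 probes gave 4.31 to 4.43 and 4.19 to 4.35 in mES, 4.36 to 4.87 and 4.40 to 4.75 in CMp, and 5.41 to 5.69 and 5.29 to 5.63 in CMa.

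CMp replicate 1 stood apart from the other neonatal arrays. On it 7.01% of all genes lay over 1 log2 unit outside both other arrays of the group, against 0% to 1.52% on the other 8 arrays, and so did 5 of the 33 genes, Acadl, Hadh, Acaa2 and Acot2 above and Acacb below. On CMa replicate 3, Acadl and Acaa2 lay as far below the other adult arrays. Other probes of these genes did not all do so. A dimmer Acadl probe gave 9.29, 9.18 and 9.25 in CMp and 10.55, 10.18 and 10.30 in CMa, without overlap, whereas 3 of the 4 Acaa2 probes had CMp replicate 1 above and CMa replicate 3 below the others. Without CMp replicate 1, 23 of the 33 genes were called higher in CMa than in CMp, among them Acadl (1.84, adjusted p = 0.0014), Acaa2 (1.51, 0.00499), Hadh (1.39, 0.00617) and Eci2 (0.55, 0.0229), while Cpt1b, Acads and Acacb were no longer called. Which property of the array goes with these values was not tested. The share of all genes called higher without CMp replicate 1 was not computed, so the count of 23 cannot be set against it. The F-test then called 9777 genes, against 9496 with all arrays.

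**Figure D3:**
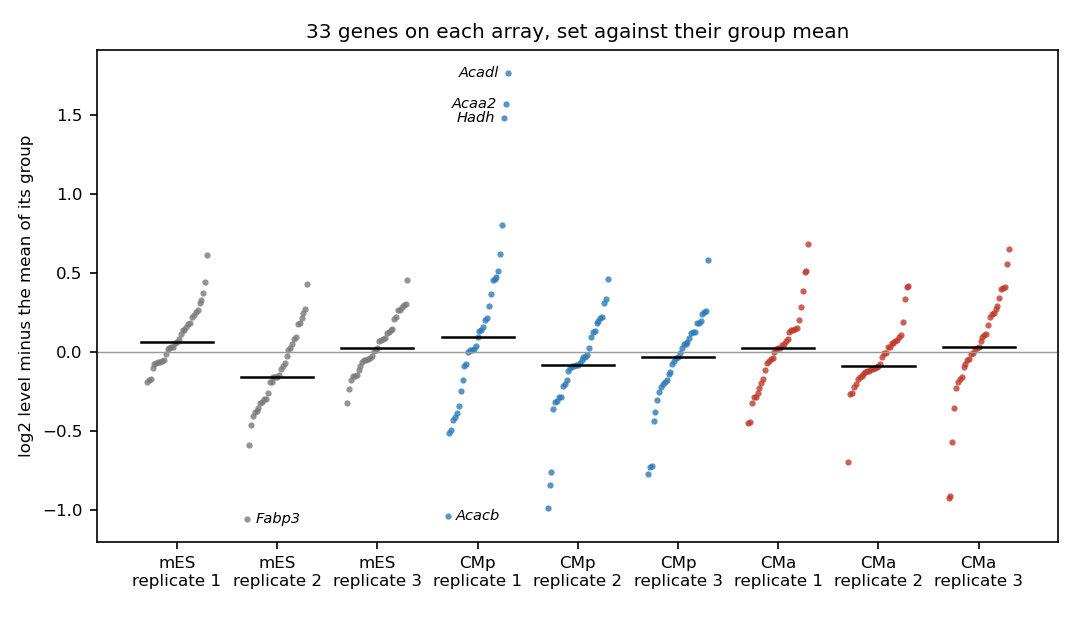
Log2 level of each of the 33 genes on each array minus the mean of its group (vertical axis), with the median as a bar and genes over 1 unit away named. CMp replicate 1 has Acadl, Acaa2 and Hadh far above and Acacb far below its group.

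Of the 33 genes, 17 had several kept probes and 16 a single one. Kept probes of a gene gave opposite directions for Acsl4 and Slc22a5 in CMp against mES, for Acsl4, Acsl5 and Slc22a5 in CMa against mES, and for Echs1 and Etfdh in CMa against CMp. For the other genes with several kept probes all probes had the same direction in each comparison, though the size differed most for Lpl and Crat, and least for Cpt2, Acadvl and Etfa in CMp against mES.

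**Figure D4:**
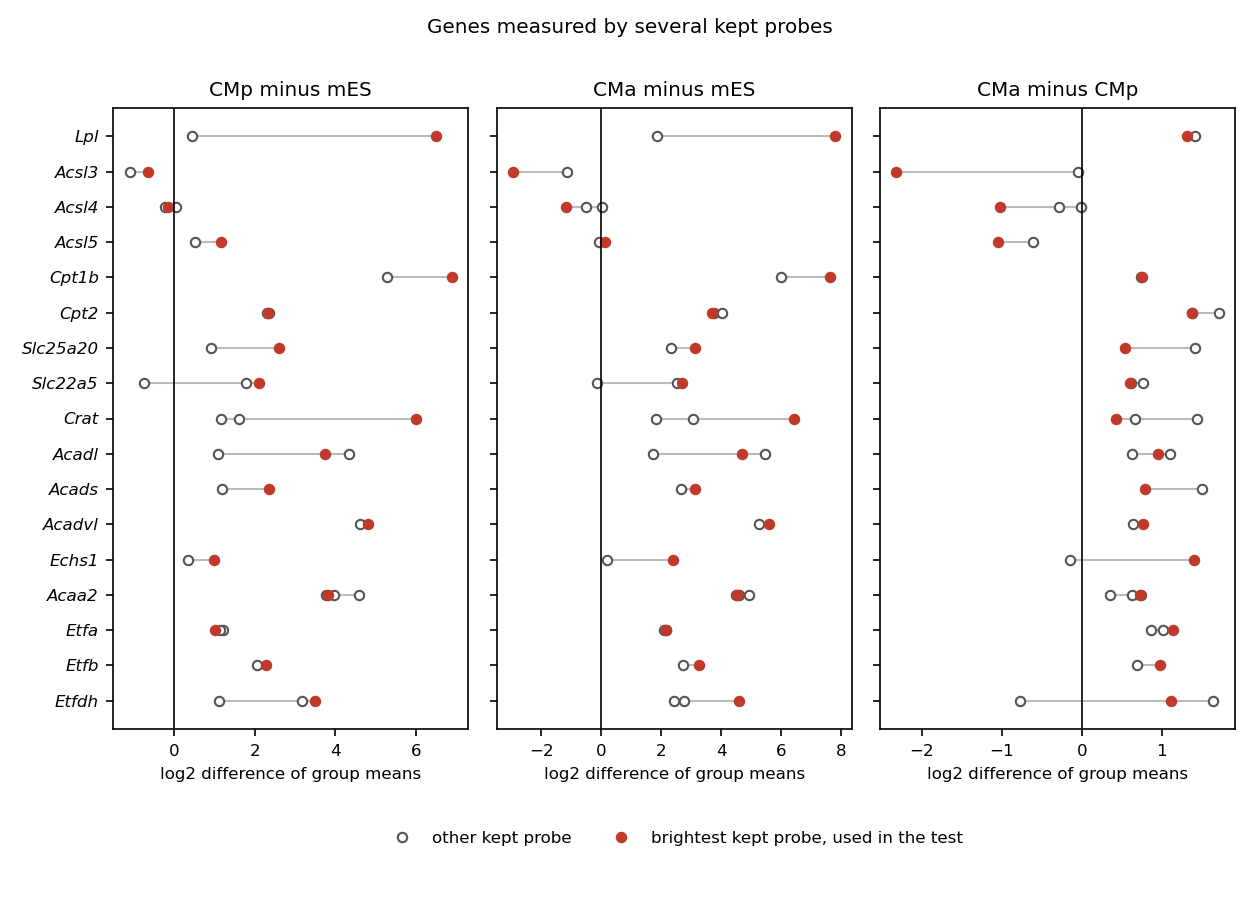
Log2 difference of group means (horizontal axis) by each kept probe of the 17 genes with several, for the 3 comparisons, the brightest probe filled and the others open. The probes of Lpl give 0.44 and 6.50 in CMp minus mES, and those of Echs1 and Etfdh fall on both sides of 0 in CMa minus CMp.

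Other lipid genes were read from the same fit. Over all genes, 35.4% were called higher and 38.8% lower in CMp against mES, and 36.8% and 40.2% in CMa against mES. In CMa against CMp these shares were 26.4% and 25.9%. Of 11 further genes of lipid uptake and binding, 8 were higher and 2 lower in CMp than in mES, 7 and 2 in CMa than in mES, and 3 and 4 in CMa than in CMp. Gpihbp1, which anchors lipoprotein lipase on capillary endothelium, was undetected in mES and at least 38.4-fold higher in CMp and at least 33.5-fold higher in CMa. Vldlr, a lipoprotein receptor, rose by 4.91 ± 0.20 in CMp relative to mES and by 1.47 ± 0.20 in CMa relative to CMp, and caveolin 1, Cav1, abundant in endothelium, rose by 7.90 ± 0.28 in CMp and by 7.28 ± 0.28 in CMa relative to mES. All 7 endothelial markers tested were higher in the same comparisons, and their part in these differences was not tested. Between CMa and CMp the largest differences were those of Angptl4, a secreted inhibitor of lipoprotein lipase, which fell by 3.47 ± 0.27 (adjusted p = 2.48e-06), and of the synthetase Acsl6, which was at least 7.53-fold higher in CMa (adjusted p = 4.25e-07).

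Of 17 further acyl-CoA enzymes, most of them mitochondrial, 9 were higher and 4 lower in CMp than in mES, 10 and 1 in CMa than in mES, and 14 and 1 in CMa than in CMp, with a median of 1.02 in the last of these. Enzymes of branched-chain amino acid and propionyl-CoA breakdown were among them: isovaleryl-CoA dehydrogenase, Ivd, rose by 1.94 ± 0.15 and the propionyl-CoA carboxylase subunit Pcca by 2.44 ± 0.16 in CMa relative to CMp. The 1 that fell there was Acot1, a cytosolic thioesterase, by 2.01 ± 0.25 (adjusted p = 6.12e-05). Of 9 peroxisomal genes, 3 were higher and 3 lower in CMp than in mES, 5 and 1 in CMa than in mES, and 6 and 0 in CMa than in CMp. Scp2, a peroxisomal thiolase and lipid carrier, rose by 1.87 ± 0.32 and the acyl-CoA oxidase Acox3 by 1.43 ± 0.29 in CMa relative to CMp.

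Of 12 genes of fatty acid synthesis, 4 were higher and 5 lower in CMp than in mES, and 4 were higher and 7 lower in CMa than in mES and again in CMa than in CMp (medians -0.30, -1.19 and -0.93). Elovl6, an elongase of saturated chains, fell by 3.40 ± 0.16 in CMp relative to mES, was at least 19.8-fold lower in CMa than in mES, and at least 1.87-fold lower in CMa than in CMp. ATP citrate lyase, Acly, fell by 3.19 ± 0.22 in CMa relative to mES, and the desaturase Fads1 by 1.68 ± 0.19 in CMa relative to CMp. Malic enzyme, Me1, was undetected in mES and at least 5.19-fold higher in CMp and 12.3-fold higher in CMa, and Acss2, an acetyl-CoA synthetase, rose by 1.49 ± 0.33 in CMa relative to CMp. Several counts of the other lists lay near the shares over all genes, such as those of peroxisomal and of synthesis genes in CMp against mES. No test compared these lists with each other or with all genes.

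**Figure D5:**
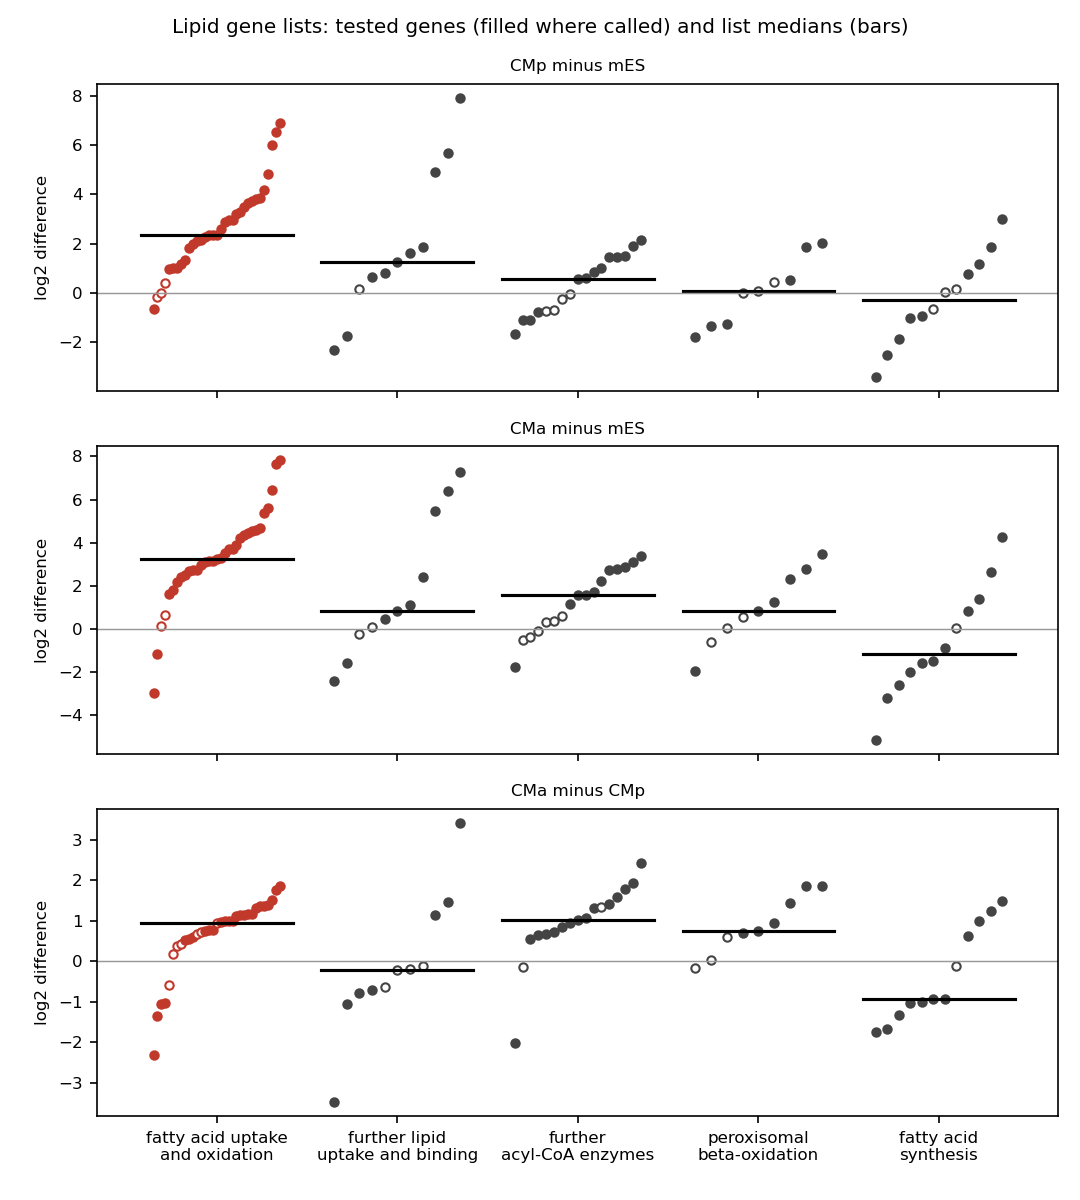
Log2 difference (vertical axis) of each tested gene in 5 lists of lipid genes for the 3 comparisons, filled where called, with the list median as a bar. The genes of fatty acid uptake and oxidation have medians of 2.37, 3.25 and 0.95, and those of fatty acid synthesis -0.30, -1.19 and -0.93.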

How the data were processed

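Total RNA of 9 samples in 3 groups of 3 was measured on Illumina bead arrays. Per the file headers, the deposited scanner table holds a bead signal intensity per probe and array, not normalized, and a detection p-value beside it. The deposited series matrix holds log2 values normalized by the authors with lumi, per the submitters' processing notes. Its version and settings: not given in the sources used here. The intensities were analysed in R 4.3.3 with limma 3.58.1: background from the detection p-values (nec), offset 16, log2, quantile normalization. Probes that 3 or more of 9 arrays detected (detection p under 0.01) were kept (19707 of 45281; 16962 with 1 symbol), and the brightest per gene (10800 genes) was tested with lmFit and eBayes on all 9 arrays, Benjamini-Hochberg adjusted over all genes, with a call at adjusted p under 0.05. Where a probe was undetected on all arrays of a group, its values there were raised to each array's lowest detected signal and the fold is given as a bound. Symbols come from the platform annotation, in which 34885 probes have 1 symbol, 18 several and 10378 none. The method was tested on simulated data. Every gene of the set is named, and of the other lists up to 3 called genes with the largest differences per comparison. Genes, lists and tests were chosen with earlier results of these data known. The number of arrays limits the precision.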

Additional observations from a re-analysis of the deposited data

How the results depend on the processing

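Of 87 calls of the 33 genes, 65 held under every alternative run other than the 2-fold rules below, and 22 were lost under at least 1. Counts of higher genes stayed at 23 to 30 for CMp against mES and 27 to 30 for CMa against mES, and, apart from the 2-fold rules, at 18 to 26 for CMa against CMp. The F-test called 8674 to 10284 genes. For most of these runs the shares of all genes called higher or lower were not computed. Requiring a 2-fold difference left 0 genes lower in CMp than in mES and 13 higher in CMa than in CMp. Testing against 2-fold left 0 lower in CMp than in mES, 1 lower in CMa than in mES, and 2 higher and 1 lower in CMa than in CMp. The dimmest kept probe gave 1 gene lower in CMa than in mES and 1 lower in CMa than in CMp. Array weights gave 2 lower in CMp than in mES, Acsl3 and Hadh. Leaving out 1 array gave 0 to 1 lower in CMp than in mES.

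Directions turned in the following, and the cause was not tested. Hadh in CMp against mES gave 0.0485 without background correction, 0.0706 with an offset of 50, 0.343 with cyclic loess, 0.0402 in the authors' matrix, and -0.74 to 0.37 with 1 array left out. Hadh in CMa against mES gave -0.0215 with array weights. Acsl4 in CMp against mES gave 0.106 with cyclic loess, 0.0514 with the dimmest probe, and -0.383 to 0.0034 with 1 array left out, and in CMa against mES 0.0371 with the dimmest probe. Acsl5 in CMa against mES gave -0.828 with a common median, -0.0701 in the authors' matrix, -0.0905 with the dimmest probe, and -0.0457 to 0.296 with 1 array left out, and in CMp against mES -0.0517 in the authors' matrix. Echs1 in CMa against CMp gave -0.0175 in the authors' matrix and -0.144 with the dimmest probe. Slc22a5 with the dimmest probe gave -0.757 in CMp against mES and -0.148 in CMa against mES. For Echs1 and Acsl5 the authors' matrix and the intensities used here disagreed on which probe carries the difference. In CMa minus CMp the tested Echs1 probe gave 1.41 here and -0.02 in that matrix, and the dimmer Echs1 probe -0.14 and 1.39. The tested Acsl5 probe gave -1.04 and -0.02, and an Acsl5 probe that was not kept 0.21 and -0.89. Which source assigns these values to the right probe was not tested.

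Deviations from the group means correlated at -0.0752 to 0.391 between arrays with the same replicate number. The highest values were those of CMa and CMp for replicate 1 (0.352) and replicate 3 (0.391). Arrays with unlike numbers were not compared in this way, so whether replicate numbers pair the samples could not be decided. The fit with a replicate block left 29, 29 and 22 genes higher and 9644 genes differing among the groups. The planned Cpt1b minus Cpt1a difference and its alternatives were not run because Cpt1a had no kept probe, and no slide block was run because the files name no slides. Dim probes limit Cd36, Acsl4, Hadh, Ucp3 and Cpt1a, and signals near the ceiling limit Lpl and Fabp3.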
